A study of Rattus norvegicus with 12 samples.

Results

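The 10 genes described here set how cardiac cells burn fuel, and they were followed through hypertrophic stimulation and Slc39a2 knockdown. They are the receptors Ppara, Ppard, Pparg, Rxra, Esrra, Esrrb and Esrrg, the coactivators Ppargc1a and Ppargc1b, and Tfam. The 10 genes were taken by gene symbol from the 18483 genes of the deposited matrices, and all 10 were found there. RNA was sequenced from neonatal rat ventricular myocytes (NRVMs), primary heart muscle cells of newborn Sprague-Dawley rats that were separated from other cells on a Percoll gradient and kept in serum-free medium with insulin, transferrin and selenium. There were 4 groups of 3 biological replicates. All cells were transfected: siNeg cells received a control siRNA and siSlc39a2 cells an siRNA against Slc39a2, a zinc importer. The siNeg PE and siSlc39a2 PE cells were also given phenylephrine (PE), an agonist of the α1-adrenergic receptor that makes myocytes grow. By the sample labels PE was started 12 h after transfection and lasted 36 h. The knockdown rests on 1 siRNA sequence, so an effect of losing Slc39a2 and an effect of that siRNA on other transcripts cannot be told apart.

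Peroxisome proliferator-activated receptors (PPARs) bind fatty acids and their derivatives and switch on genes of lipid uptake and oxidation, and each does so as a heterodimer with a retinoid X receptor such as RXRα. Estrogen-related receptors (ERRs) bind DNA without a known natural hormone and control genes of the citric acid cycle, the respiratory chain and contraction. PGC-1α and PGC-1β, the products of Ppargc1a and Ppargc1b, bind both kinds of receptor and raise their activity, and TFAM packages and transcribes mitochondrial DNA. The adult heart draws most of its energy from fatty acids, and a shift away from them is a known feature of pathological hypertrophy.

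The promoters of the gene that fell most and of a gene that rose are shown with the motifs found in them. RefSeq windows on the GRCr8 build matched 9 of the 10 genes, in 13 windows, and Ppard had none. The 250 bases before the RefSeq start were searched on both strands for the Sp1 box GGGCGG, the ETS site CCGGAAG bound by GABP, the NRF1 core GCATGCGC, the cAMP response element TGACGTCA, the ERR half-site AAGGTCA, the direct repeat AGGTCANAGGTCA, the A/T run TATTTTTA of MEF2 and the interferon-type element GAAANNGAAA. The Sp1 box was in 30.5% of all 33469 windows, and capitals mark its 2 copies in the Rxra promoter at chr3:31387642-31387891 on the plus strand.
Rxra: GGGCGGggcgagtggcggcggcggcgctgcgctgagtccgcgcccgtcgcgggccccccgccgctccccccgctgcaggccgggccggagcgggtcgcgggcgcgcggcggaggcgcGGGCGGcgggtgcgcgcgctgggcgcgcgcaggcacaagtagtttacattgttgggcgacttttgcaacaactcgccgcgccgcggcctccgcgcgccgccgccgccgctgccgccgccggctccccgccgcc
The Tfam promoter at chr20:17355123-17355372, also on the plus strand, held the ETS site, which was in 7.27% of windows. Capitals mark that site, at bases -56 to -50 from the start, and 2 Sp1 boxes on the opposite strand.
Tfam: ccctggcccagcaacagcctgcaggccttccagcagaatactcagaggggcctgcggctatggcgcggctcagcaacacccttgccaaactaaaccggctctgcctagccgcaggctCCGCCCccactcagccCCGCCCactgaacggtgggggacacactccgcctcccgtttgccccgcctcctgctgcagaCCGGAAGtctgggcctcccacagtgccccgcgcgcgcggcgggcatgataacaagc
Sp1 boxes, not marked below, were also found before Ppara, Pparg, Esrra, Esrrg and Ppargc1b. Shorter stretches hold the other motifs that were found. The cAMP response element, its own reverse complement and in 1.59% of windows, was at bases -181 to -174 of Ppargc1a (chr14:63634116-63634145, plus strand). The NRF1 core, in 2.20% of windows, lay on both strands of Ppara (chr7:118712496-118712525, plus strand), where the copies overlap, and once before Esrra (chr1:213543402-213543431, minus strand).
Ppargc1a: ctgcctcggagTGACGTCAggagtttgagc
Ppara: ggggctcggtgGCGCATGCGCgtggaccag
Esrra: ccccctgttttGCATGCGCaggccgacccc
The ERR half-site was in 3.99% of all windows, the direct repeat in 0.0508%, the MEF2-type run in 2.44% and the interferon-type element in 3.41%. None of these 4 was in a window of the 10 genes. A match is a description of letters and not a site shown to be bound.

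Total counts were between 24065539 and 28603854 per library. The targeted transcript, Slc39a2, was counted 50, 50 and 59 times in the siNeg libraries, against 21, 11 and 2 times in those of siSlc39a2. With PE the counts were 95, 198 and 182 against 31, 25 and 38. It was lower after knockdown by a log2 fold change of -2.35 without PE (adjusted p = 9.8e-04) and -2.33 with PE (adjusted p = 2.24e-04). The summed level of 10 cardiomyocyte markers was 47478 to 48000 CPM (counts scaled to library size) in siNeg, 36141 to 37243 in siSlc39a2, 45285 to 48805 in siNeg PE and 39933 to 41482 in siSlc39a2 PE. The 10 fibroblast markers summed to 13911 to 18414 CPM in siNeg, 5394 to 5701 in siSlc39a2, 9220 to 11821 in siNeg PE and 3640 to 5028 in siSlc39a2 PE. In bulk RNA, fewer cells of a type and less RNA per cell cannot be told apart. The 7 smooth muscle and pericyte markers summed to 2546 to 2651 CPM in siNeg, 1076 to 1148 in siSlc39a2, 1720 to 2129 in siNeg PE and 1715 to 1833 in siSlc39a2 PE. The 10 macrophage markers in the files summed to 89.0 to 126 CPM in siNeg, 47.9 to 60.1 in siSlc39a2, 43.8 to 57.0 in siNeg PE and 35.6 to 42.3 in siSlc39a2 PE. Endothelial markers stayed at 17.3 to 27.3 CPM summed, with Erg at 0 in every siNeg library, and the 3 of 6 adipocyte markers in the files summed to at most 1.89 CPM. Summed markers of cardiomyocytes, fibroblasts, macrophages and smooth muscle or pericytes thus differed between the groups. Single markers did not all move with the sum. With knockdown without PE, 5 of 10 cardiomyocyte markers were lower and 0 higher at an adjusted p under 0.05. Of 10 fibroblast markers 7 were lower and 1 higher, and of 9 macrophage markers tested 4 were lower and 1 higher. All 7 smooth muscle and pericyte markers were lower. Among all genes tested, 26.4% were lower and 22.8% higher. The cardiomyocyte sum was lower after knockdown, with and without PE. The part of these cell types in the changes described here was not tested.

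Some libraries stood apart by gene length. After group means were removed, the deviation of a gene in siNeg replicate 1 correlated with its length at a Spearman coefficient of -0.513 across 13967 genes, with -0.388 in siNeg PE replicate 1 and -0.372 in siSlc39a2 PE replicate 1. In the opposite direction siNeg replicate 3 had 0.432, siSlc39a2 PE replicate 3 had 0.371, and siNeg replicate 2 and siNeg PE replicate 3 had 0.309 each. Deviations within a group sum to 0, so these values are not independent of each other, and the other 5 libraries lay between -0.266 and 0.222. Between groups, the log2 fold change correlated with gene length at 0.252 for PE in siNeg cells and 0.243 for PE in siSlc39a2 cells, against 0.0709 and 0.0888 for the knockdown without and with PE. Ppargc1b lay at percentile 98.6 of gene length and Ppara at 95.2, Esrrg, Rxra, Esrrb and Ppargc1a between 86.4 and 88.5, and Tfam at 19.3. Values from a fit with length-dependent offsets are therefore given beside the calls that it changes and the called values that it moves most.

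The question for each comparison was which of the 10 genes moved with the knockdown, with PE, or with one on top of the other. Levels are in CPM and changes are log2 fold changes of counts, called at a Benjamini-Hochberg adjusted p under 0.05 over 13967 genes in the quasi-likelihood test of edgeR. Knockdown without PE raised 3 of the 10 genes (Tfam, Esrrg and Esrrb) and lowered 1 (Rxra), where 22.8% of all genes tested were higher and 26.4% lower. PE in siNeg cells lowered 1 of the 10 (Rxra) and raised 0, against 24.0% of all genes higher and 25.7% lower. DESeq2 gave 0 higher genes as well, and the unadjusted p was under 0.05 for 0 of the 10 in that direction. Knockdown in PE-treated cells raised 2 (Tfam and Esrrg) and lowered 2 (Rxra and Ppara), against 29.2% higher and 28.1% lower. PE in siSlc39a2 cells raised 4 (Tfam, Esrrg, Ppargc1b and Pparg) and lowered 5 (Rxra, Ppara, Ppard, Esrra and Esrrb), against 30.7% higher and 29.3% lower. The called shares of the 10 genes lay below these backgrounds for PE in siNeg cells and above them for PE in siSlc39a2 cells. The 10 genes were not tested as a set, so the counts are no result about them as a set.

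Changes were small for most of the 10 genes. With a further threshold of an absolute log2 fold change above 1, 0 of the 10 were called in the first 3 comparisons, where 9.78%, 6.60% and 11.6% of all genes passed. In the comparison of siSlc39a2 PE with siSlc39a2, where 10.5% of genes passed, Pparg was higher and Rxra lower. The median log2 fold change of the 10 genes was 0.11 for knockdown, 0.07 for PE, -0.09 for knockdown with PE and -0.13 for PE in siSlc39a2 cells, beside -0.02, -0.01, 0.01 and 0.01 over all genes tested. The comparisons share samples in pairs, so they are not independent of each other.

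**Figure D1:**
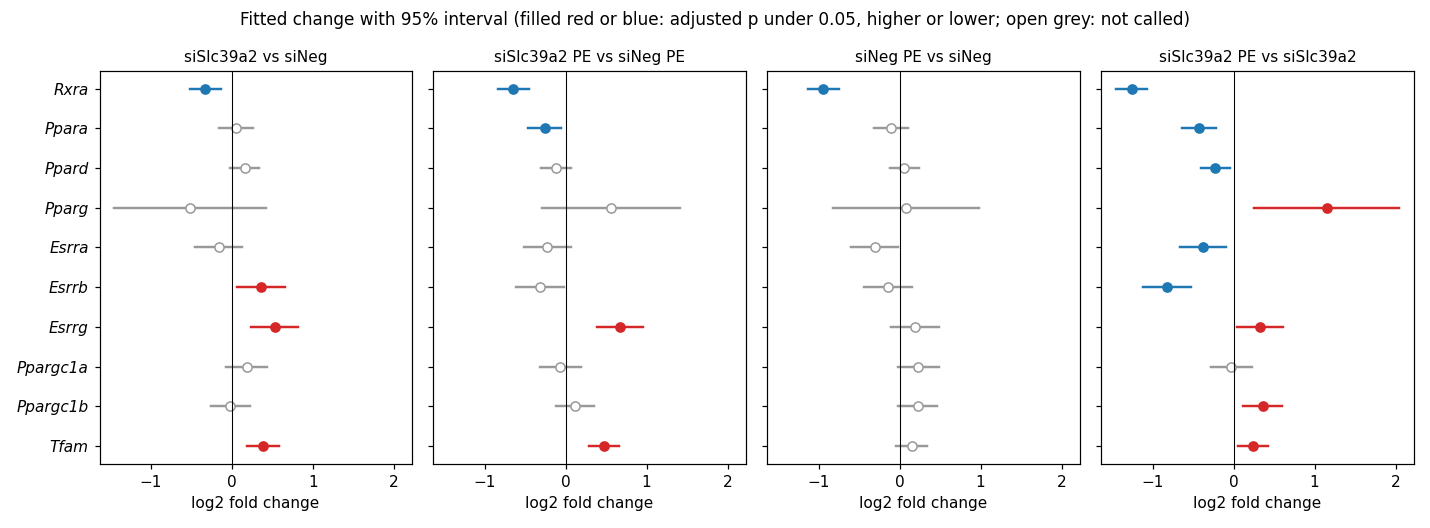
Fitted log2 fold changes of the 10 genes (horizontal axis) in 4 comparisons, with 95% intervals. Filled points passed an adjusted p of 0.05 (red higher, blue lower) and open grey points did not; Rxra is blue in all 4 panels, and Tfam and Esrrg are red in the 3 panels with siSlc39a2 cells.

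Rxra (gene ID 25271), the common partner of the PPARs, was the only one of the 10 genes that fell in all 4 comparisons. Its level was 289, 262 and 271 CPM in the siNeg libraries, 236, 222 and 196 in siSlc39a2, 152, 146 and 129 in siNeg PE and 94.1, 94.3 and 84.9 in siSlc39a2 PE. No library of one group reached into the range of another, and the order siNeg, siSlc39a2, siNeg PE, siSlc39a2 PE held with a difference past the threshold between each pair of neighbours (adjusted p = 0.00561, 5.86e-05 and 3.98e-05). For the middle pair, siSlc39a2 against siNeg PE, 22.1% of all genes were higher and 23.4% lower.

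PE lowered Rxra by a log2 fold change of -0.94 (SE 0.084, adjusted p = 4.19e-06) in siNeg cells and -1.26 (SE 0.085, adjusted p = 1.83e-07) in siSlc39a2 cells. Knockdown lowered it by -0.33 (SE 0.083, adjusted p = 0.00561) without PE and by -0.64 (SE 0.084, adjusted p = 3.98e-05) with PE. Between the extreme groups, siSlc39a2 PE and siNeg, the fitted ratio was 0.333 (log2 fold change -1.59, adjusted p = 4.77e-09), in a comparison where 38.0% of all genes were higher and 37.3% lower. The knockdown call without PE was lost when siSlc39a2 replicate 3, the lowest of its group, was left out (-0.21, adjusted p = 0.0633, in a range of 2.42e-04 to 0.0633 over 23 alternatives, a number that leaves aside the fold threshold here and below). The other 3 Rxra calls held in all 23. With the fold threshold, in the fit without offsets, the call for PE in siSlc39a2 cells remained, and the other 3 were lost. Length-dependent offsets gave -1.11 (adjusted p = 1.97e-05) for PE in siNeg cells and -1.48 (adjusted p = 1.04e-06) in siSlc39a2 cells, both past that threshold.

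**Figure D2:**
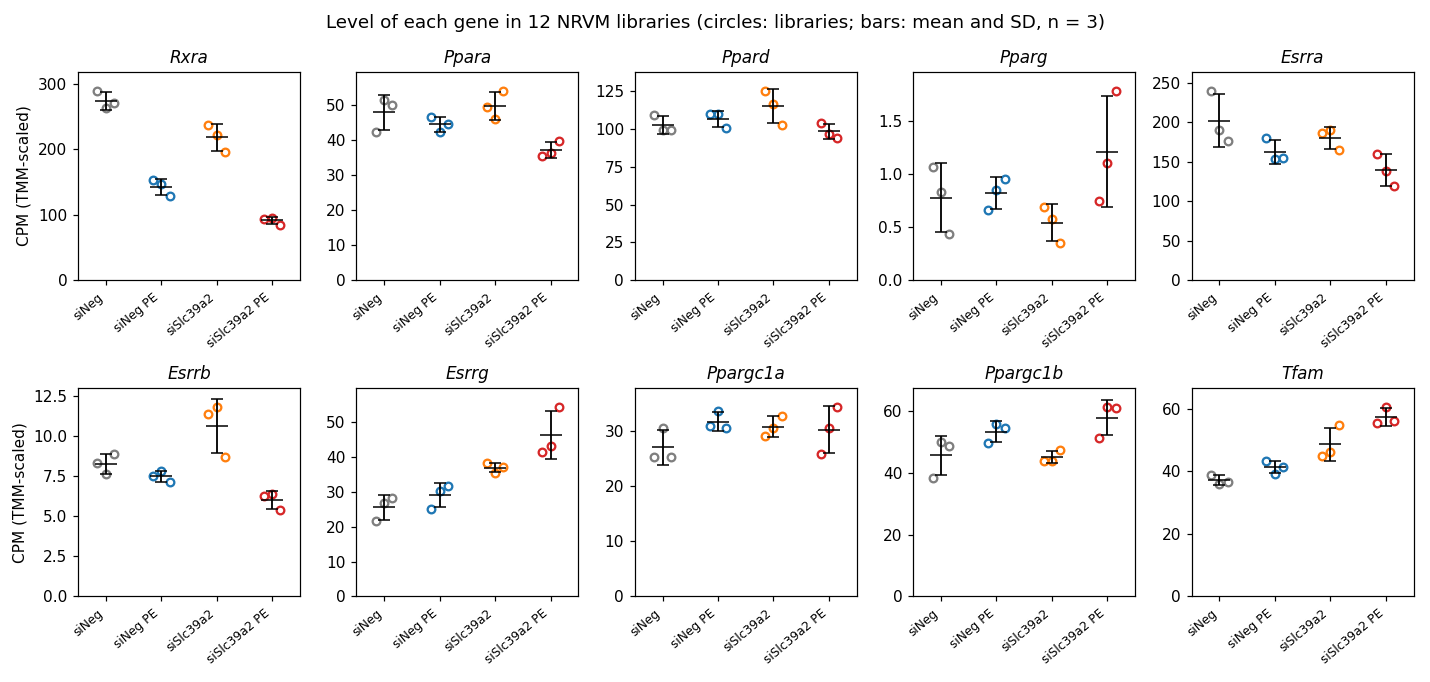
Level of each gene in CPM (vertical axes, all from 0) in the 12 libraries, by group; circles are libraries and bars the mean and SD of 3. The Rxra groups do not overlap and step down from 274 CPM in siNeg to 91.1 in siSlc39a2 PE, whereas the Ppargc1a groups all overlap.

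Among the PPARs, Ppara (gene ID 25747), which drives fatty acid oxidation in heart and liver, was lowest in siSlc39a2 PE. The levels were 42.1, 51.3 and 50.0 CPM in siNeg, 49.3, 45.9 and 54.0 in siSlc39a2, 46.6, 42.2 and 44.5 in siNeg PE and 35.4, 36.4 and 39.6 in siSlc39a2 PE. The siSlc39a2 PE libraries lay below all others, while the other 3 groups overlapped and did not differ beyond their spread.

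PE lowered Ppara in siSlc39a2 cells by -0.42 (SE 0.090, adjusted p = 0.00156), or by -0.70 with length-dependent offsets, and in siNeg cells the value was -0.11 (adjusted p = 0.344). With length-dependent offsets the PE value in siNeg cells was -0.31 (adjusted p = 0.00806, in a range of 0.00806 to 0.697), so that call depends on the offsets. Knockdown lowered Ppara in PE-treated cells by -0.26 (SE 0.091, adjusted p = 0.0256), or by -0.39 with the offsets. That call was lost without siNeg PE replicate 1 or 3, or without siSlc39a2 PE replicate 1 or 2 (adjusted p = 0.0854, 0.0546, 0.0654 and 0.0754).

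Ppard (gene ID 25682), the most abundant PPAR here per length, changed little. It had 109, 99.4 and 99.5 CPM in siNeg, 125, 117 and 103 in siSlc39a2, 110, 110 and 101 in siNeg PE and 104, 97.0 and 94.3 in siSlc39a2 PE. All 4 groups overlapped with a neighbour in the order of levels, and no pair of neighbours differed beyond its spread. PE lowered Ppard in siSlc39a2 cells by -0.22 (SE 0.078, adjusted p = 0.0243), a call lost without siSlc39a2 replicate 1 or 2 or siSlc39a2 PE replicate 2 or 3 (adjusted p = 0.121, 0.0687, 0.0706 and 0.0823). With length-dependent offsets the value was -0.35 (adjusted p = 0.00512). Knockdown without PE gave Ppard 0.16 (adjusted p = 0.102), and 0.29 without siSlc39a2 replicate 3 (adjusted p = 0.00852). Counts of Ppard were not whole numbers in every library, which marks reads shared with other genes, so its values are uncertain, and so are those of Esrra.

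Pparg (gene ID 25664), the master regulator of fat cell differentiation, was close to absent. It had 27, 22 and 11 counts in siNeg, 20, 17 and 9 in siSlc39a2, 18, 24 and 26 in siNeg PE and 20, 32 and 49 in siSlc39a2 PE. In CPM, the siSlc39a2 PE libraries (0.746 to 1.78) lay above those of siSlc39a2 (0.351 to 0.691), and all other pairs of groups overlapped. The change between these groups was 1.15 (SE 0.389, adjusted p = 0.0216). Without siSlc39a2 replicate 2 or 3, or siSlc39a2 PE replicate 3, it was 1.19, 0.90 and 0.77 (adjusted p = 0.0502, 0.0848 and 0.124).

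Of the ERRs, Esrra (gene ID 293701), the isoform most tied to PGC-1 signalling in adult muscle and heart, was lowest in siSlc39a2 PE. Its level was 240, 190 and 176 CPM in siNeg, 186, 190 and 164 in siSlc39a2, 180, 153 and 155 in siNeg PE and 159, 139 and 119 in siSlc39a2 PE. The siNeg libraries, with a high replicate 1, overlapped with siSlc39a2 and siNeg PE, and no neighbours in the order of levels differed. PE lowered Esrra in siSlc39a2 cells by -0.38 (SE 0.125, adjusted p = 0.0200) and in siNeg cells the value was -0.31 (adjusted p = 0.0555). The value in siNeg cells was called by DESeq2 (adjusted p = 0.0438) and without siNeg replicate 3, siNeg PE replicate 1 or siSlc39a2 PE replicate 3 (adjusted p = 0.0276, 0.0353 and 0.0362). The call in siSlc39a2 cells was lost without siSlc39a2 replicate 1 or 2 or siSlc39a2 PE replicate 2 or 3 (adjusted p = 0.0606, 0.0691, 0.0513 and 0.0871). Knockdown in PE-treated cells gave Esrra -0.23 (adjusted p = 0.135), and it was called lower by limma on log2(FPKM + 1) (-0.27, adjusted p = 0.0341) and without siSlc39a2 PE replicate 1 (-0.34, adjusted p = 0.0417), among 6 of 23 alternatives.

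Esrrb (gene ID 299210), better known for its role in pluripotent cells, was the least abundant ERR. It had 8.33, 7.62 and 8.87 CPM in siNeg, 11.4, 11.8 and 8.69 in siSlc39a2, 7.52, 7.81 and 7.15 in siNeg PE and 6.27, 6.38 and 5.38 in siSlc39a2 PE. The siSlc39a2 PE libraries lay below all others, and siSlc39a2 replicate 3 lay within the siNeg range. PE lowered Esrrb by -0.82 (SE 0.129, adjusted p = 1.78e-04) in siSlc39a2 cells, or by -1.04 with length-dependent offsets. That call held in all 23 alternatives, and the value in siNeg cells was -0.14 (adjusted p = 0.374). Knockdown without PE raised it by 0.36 (SE 0.127, adjusted p = 0.0301), but 10 of 23 alternatives lost that call, among them length-dependent offsets (adjusted p = 0.0838), leaving out siNeg replicate 1 or 2 (adjusted p = 0.0576 and 0.109) and leaving out siSlc39a2 replicate 1 or 2 (adjusted p = 0.101 and 0.124). The 10 adjusted p-values without a call ran from 0.0576 to 0.280. In PE-treated cells the knockdown value had the opposite sign, -0.32 (SE 0.130, adjusted p = 0.0521), with groups that did not overlap. It was called lower in 4 of 23 alternatives, among them length-dependent offsets (-0.41, adjusted p = 0.0365), limma on log2(count + 1) (adjusted p = 0.0407) and leaving out siSlc39a2 replicate 3 (adjusted p = 0.0238).

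Esrrg (gene ID 360896), the ERR of oxidative muscle and of the perinatal heart, was higher after knockdown with and without PE. Its level was 21.6, 27.0 and 28.2 CPM in siNeg, 38.2, 35.6 and 37.2 in siSlc39a2, 25.2, 30.4 and 31.8 in siNeg PE and 41.5, 43.2 and 54.4 in siSlc39a2 PE. All 6 libraries with the knockdown lay above all 6 without it, and siNeg and siNeg PE overlapped.

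Knockdown raised Esrrg by 0.53 (SE 0.127, adjusted p = 0.00389) without PE and by 0.67 (SE 0.126, adjusted p = 6.09e-04) with PE, and both calls held in all 23 alternatives, length-dependent offsets included (0.50 and 0.57). PE raised it by 0.33 in siSlc39a2 cells (SE 0.125, adjusted p = 0.0374) and the value in siNeg cells was 0.19 (adjusted p = 0.235). With length-dependent offsets the value for PE in siSlc39a2 cells was 0.09 (adjusted p = 0.305). The call was also lost when any siSlc39a2 replicate (adjusted p = 0.0649, 0.109 and 0.0956) or siSlc39a2 PE replicate 3 (adjusted p = 0.181) was left out.

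The PGC-1 coactivators differed less between groups. Ppargc1a (gene ID 83516), which links energy demand to mitochondrial biogenesis, was at 25.2, 30.6 and 25.2 CPM in siNeg, 29.0, 30.6 and 32.8 in siSlc39a2, 30.9, 33.6 and 30.5 in siNeg PE and 25.8, 30.5 and 34.3 in siSlc39a2 PE. The 4 groups overlapped and no neighbours in the order differed. Its log2 fold changes were 0.19 (95% interval -0.06 to 0.44, adjusted p = 0.173) for knockdown and 0.23 (-0.02 to 0.48, adjusted p = 0.0977) for PE. With PE present or in siSlc39a2 cells they were -0.07 for knockdown (-0.32 to 0.18) and -0.03 for PE (-0.28 to 0.22). The knockdown value in PE-treated cells was called lower by limma on log2(FPKM + 1) with the filter (-0.31, adjusted p = 0.0237) and without it (-0.31, adjusted p = 0.0365), and on log2(FPKM + 0.1) (-0.37, adjusted p = 0.0217). The PE value in siNeg cells was called higher without siNeg replicate 2 or siSlc39a2 PE replicate 1 (adjusted p = 0.0359 and 0.0415). With length-dependent offsets the value for PE in siSlc39a2 cells was -0.26 (adjusted p = 0.0175, in a range of 0.0175 to 0.949).

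Ppargc1b (gene ID 291567), the related coactivator, was at 38.3, 49.9 and 48.7 CPM in siNeg, 43.9, 43.9 and 47.3 in siSlc39a2, 49.5, 55.9 and 54.3 in siNeg PE and 51.2, 61.2 and 60.8 in siSlc39a2 PE. The PE libraries lay above the siSlc39a2 libraries, and siNeg, with a low replicate 1, overlapped with siNeg PE. PE raised Ppargc1b in siSlc39a2 cells by 0.36 (SE 0.104, adjusted p = 0.00959). That value was 0.02 (adjusted p = 0.848) with length-dependent offsets and -0.0028 (adjusted p = 0.983) on the log2(FPKM + 1) scale, in a range of 8.07e-04 to 1 over 23 alternatives, so its direction on those scales was not set. In siNeg cells the PE value was 0.22 (adjusted p = 0.0910), and it was called without siSlc39a2 PE replicate 1 (0.24, adjusted p = 0.0489). Ppargc1b has the longest transcripts of the 10 genes.

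Tfam (gene ID 83474) was higher after knockdown with and without PE. It had 38.9, 36.0 and 36.6 CPM in siNeg, 45.0, 46.1 and 54.7 in siSlc39a2, 43.2, 39.3 and 41.5 in siNeg PE and 55.4, 60.5 and 56.2 in siSlc39a2 PE. From siNeg through siNeg PE and siSlc39a2 to siSlc39a2 PE each group lay above the one before without overlap, and of these neighbours only siNeg and siNeg PE did not differ past the threshold (adjusted p = 0.144). Knockdown raised Tfam by 0.39 (SE 0.083, adjusted p = 0.00198) without PE and 0.47 (SE 0.083, adjusted p = 3.61e-04) with PE, and both calls held in all 23 alternatives. PE raised it by 0.24 (SE 0.082, adjusted p = 0.0233) in siSlc39a2 cells, and without siSlc39a2 replicate 1 or 2 or siSlc39a2 PE replicate 2 that call was lost (adjusted p = 0.104, 0.0955 and 0.0939). With length-dependent offsets the PE value in siNeg cells, 0.15 before, was 0.25 (adjusted p = 0.0182, in a range of 0.0182 to 0.310).

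Whether PE acted differently after knockdown was tested by the interaction, the log2 effect of PE in siSlc39a2 cells less that in siNeg cells. It was called for 0 of the 10 genes by edgeR, where 1.73% of all genes were called with a higher and 1.88% with a lower value. In that test 4 of the 10 had an unadjusted p under 0.05. The share of all genes at the unadjusted threshold is not given, so whether these 4 are more than that share cannot be told. DESeq2 called 1 of the 10. Esrrb had the lowest adjusted p, with an interaction of -0.68 (SE 0.182, adjusted p = 0.0596). It was called by DESeq2 (adjusted p = 0.0209) and without siSlc39a2 replicate 3 (adjusted p = 0.0125), in a range of 0.0125 to 0.279 over 22 alternatives. Rxra had -0.32 (SE 0.118, adjusted p = 0.200), Ppara -0.32 (SE 0.128, adjusted p = 0.239) and Ppard -0.28 (SE 0.110, adjusted p = 0.223). For Esrrg and Tfam the interaction was 0.14 (95% interval -0.27 to 0.55) and 0.09 (-0.18 to 0.36).

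Levels between genes can be compared only per length, in FPKM (fragments per kilobase of transcript, scaled to library size). In siNeg, Esrra was highest at 86.2 ± 12.6 FPKM (SD, n = 3), followed by Rxra at 50.3 ± 2.0, Ppard at 30.6 ± 1.08 and Tfam at 25.8 ± 0.577. Ppara (6.26), Ppargc1a (5.11), Ppargc1b (4.76) and Esrrg (4.53) followed closely, and Esrrb (1.53) and Pparg (0.380) were lowest. The PPAR and ERR families were thus each led by 1 member at the RNA level, and the PGC-1 coactivators were close to each other. Both leading members, Ppard and Esrra, share reads with other genes, so their lead and the PPAR and ERR shares are uncertain. Of the summed PPAR FPKM, Ppard held 82.2% in siNeg and 84.5% in siSlc39a2 PE, and of the PGC-1 FPKM Ppargc1a held 51.9% and 51.0%. Within the ERRs the share of Esrrg was 5.02% ± 1.40 (SD, n = 3) in siNeg, 7.70% ± 0.636 in siSlc39a2, 6.80% ± 1.31 in siNeg PE and 12.2% ± 3.09 in siSlc39a2 PE, while the share of Esrra went from 93.3% to 86.3% between siNeg and siSlc39a2 PE.

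**Figure D3:**
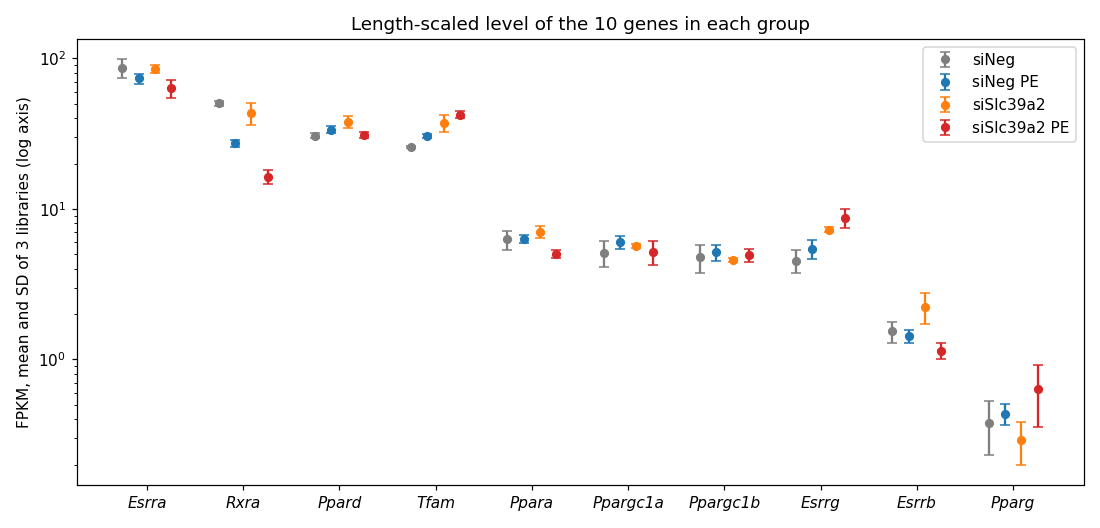
FPKM of the 10 genes (log axis), mean and SD of 3 libraries per group, in order of the siNeg level. Esrra is highest at 86.2 FPKM in siNeg and Pparg lowest at 0.380; the Rxra points spread most widely among the abundant genes, from 50.3 in siNeg to 16.3 in siSlc39a2 PE.

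Genes that PPARs are known to switch on were mostly lower in each comparison. Of 30 such genes tested, 25 fell and 1 rose with knockdown, 21 fell and 0 rose with PE, 24 fell and 1 rose with knockdown in PE-treated cells, and 21 fell and 1 rose with PE in siSlc39a2 cells. DESeq2 also gave 0 higher with PE, and limma on log2(FPKM + 1) gave 2 higher and 19 lower, with a median of -0.34. Their medians were -0.53, -0.54, -0.57 and -0.55, beside -0.02, -0.01, 0.01 and 0.01 over all genes. With length-dependent offsets 25, 20, 24 and 23 fell. Over all genes tested, 26.4%, 25.7%, 28.1% and 29.3% were lower in these comparisons and 22.8%, 24.0%, 29.2% and 30.7% higher. Plin2, which coats lipid droplets, was the gene that rose with knockdown in both settings, and Lpl, the lipase that frees fatty acids from lipoproteins, the one that rose with PE in siSlc39a2 cells; both were named after their values were seen.

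Ucp3, a mitochondrial carrier induced by fatty acids, had 34.8, 22.2 and 21.1 CPM in siNeg, 7.67, 9.11 and 11.7 in siSlc39a2, 4.68, 1.58 and 2.16 in siNeg PE and 0.56, 0.31 and 0.40 in siSlc39a2 PE. Its 4 groups did not overlap. Knockdown changed it by -1.46 (SE 0.292, adjusted p = 0.00121) and PE by -3.21 (SE 0.327, adjusted p = 1.18e-05), and PE in siSlc39a2 cells by -4.48 (SE 0.429, adjusted p = 3.76e-06).

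Plin5, a lipid droplet protein that contacts mitochondria, fell by 1.54 with PE in siNeg cells and fell by 1.89 in siSlc39a2 cells. Fabp4 fell by 1.79 with knockdown at a group mean under 1 CPM (0.996 ± 0.212 in siNeg, SD, n = 3), and Slc27a1, a fatty acid transporter with shared reads, fell by 1.31 with knockdown in PE-treated cells.

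**Figure D4:**
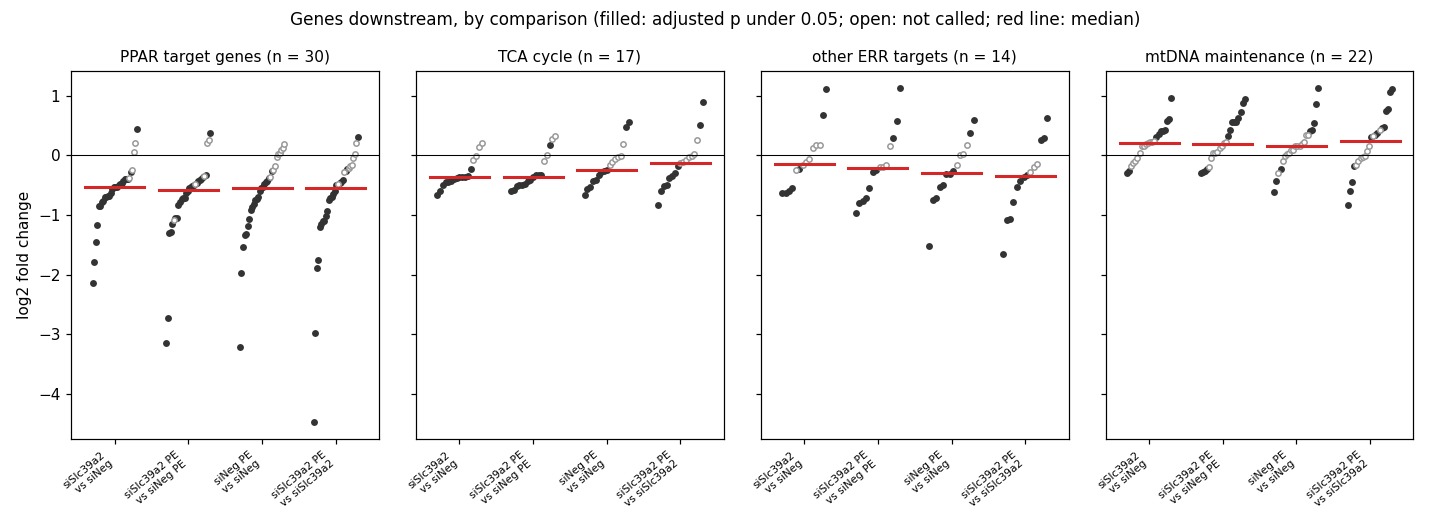
Log2 fold changes (vertical axis) of single genes in 4 lists and 4 comparisons, sorted within each comparison. Filled points passed an adjusted p of 0.05 and red lines are medians; the PPAR target medians lie between -0.57 and -0.53 and those of mitochondrial DNA maintenance between 0.15 and 0.24.

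Enzymes of the citric acid cycle, which ERRs and PGC-1 are known to control, were mostly lower after knockdown, with and without PE. Of 17 tested, 13 fell and 0 rose with knockdown (1 rose by DESeq2), 9 fell and 2 rose with PE, 12 fell and 1 rose with knockdown in PE-treated cells, and 8 fell and 2 rose with PE in siSlc39a2 cells. The shares of all genes that fell were 26.4%, 25.7%, 28.1% and 29.3%, and of those that rose 22.8%, 24.0%, 29.2% and 30.7%. The medians of the 17 enzymes were -0.37, -0.25, -0.36 and -0.13. For PE in siNeg cells limma on log2(FPKM + 1) gave 3 higher and 6 lower, with a median of -0.02. Mdh2, mitochondrial malate dehydrogenase, went from 1335 ± 24.7 CPM in siNeg to 841 ± 30.4 in siSlc39a2 (SD, n = 3), a change of -0.67 (SE 0.065, adjusted p = 3.43e-06). Idh2, the NADP-dependent isocitrate dehydrogenase of mitochondria, went from 1724 ± 18.0 to 1088 ± 87.4 with PE (-0.66, SE 0.074, adjusted p = 2.35e-05). Fh, fumarase, fell by 0.50 with knockdown, as did Ogdh (-0.59, shared reads). Idh3g fell by 0.56 with PE, whereas Dld, a subunit of several dehydrogenase complexes, rose by 0.57.

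Of 14 other known ERR targets, 5 fell and 2 rose with knockdown, 8 fell and 2 rose with PE, 7 fell and 3 rose with knockdown in PE-treated cells, and 8 fell and 3 rose with PE in siSlc39a2 cells. Beside these stand 26.4%, 25.7%, 28.1% and 29.3% of all genes lower and 22.8%, 24.0%, 29.2% and 30.7% higher. Mb, the oxygen store myoglobin, fell from 3874 ± 789 CPM in siNeg to 1348 ± 351 in siNeg PE (-1.52, SE 0.169, adjusted p = 2.34e-05) and fell by 0.63 with knockdown. Perm1, a muscle coregulator of ERRs and PGC-1, fell by 0.74 with PE in siNeg cells and fell by 1.06 in siSlc39a2 cells. Pfkm, the muscle phosphofructokinase of glycolysis, fell by 0.72 with PE and fell by 0.97 with knockdown in PE-treated cells, and Ckmt2, the mitochondrial creatine kinase of muscle, fell by 0.79 in the latter. Vegfa, the vascular growth factor, rose by 0.68 with knockdown, and Mfn1, a mitochondrial fusion protein with shared reads, by 1.11.

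Nuclear genes that maintain and express mitochondrial DNA, the group of Tfam, had medians above 0 in each comparison. Of 22 tested besides Tfam, 8 rose and 2 fell with knockdown, 5 rose and 3 fell with PE, 9 rose and 4 fell with knockdown in PE-treated cells, and 9 rose and 4 fell with PE in siSlc39a2 cells, with medians of 0.21, 0.15, 0.18 and 0.24. These counts stand beside 22.8%, 24.0%, 29.2% and 30.7% of all genes higher and 26.4%, 25.7%, 28.1% and 29.3% lower. The 5 of 22 that rose with PE are near the 24.0%. On log2(FPKM + 1) the medians were 0.09, 0.08, 0.07 and 0.08. Mterf3, a factor of mitochondrial transcription and ribosome assembly, rose from 11.4 ± 0.195 CPM in siNeg to 17.5 ± 3.05 in siSlc39a2 (0.61, SE 0.122, adjusted p = 0.0011), and Tefm, the mitochondrial elongation factor, by 0.58. Polrmt, the mitochondrial RNA polymerase, fell by 0.61 with PE in siNeg cells and fell by 0.84 in siSlc39a2 cells. Mterf1, Primpol and Gabpb2 also rose, with counts that share reads. For transcripts of the mitochondrial genome itself, 26 listed gene symbols were looked up and 0 were in the matrices, so they could not be analysed.

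Among 20 regulators upstream of PGC-1, 4 rose and 2 fell with knockdown, 3 rose and 8 fell with PE, 7 rose and 4 fell with knockdown in PE-treated cells, and 6 rose and 9 fell with PE in siSlc39a2 cells. In that order, 22.8%, 24.0%, 29.2% and 30.7% of all genes rose and 26.4%, 25.7%, 28.1% and 29.3% fell. Several counts are near these shares, and the regulators were not tested as a set. With length-dependent offsets the medians for PE were -0.12 in siNeg cells and -0.12 in siSlc39a2 cells, against 0.03 and 0.09 without them. Prkaa2, the α2 catalytic subunit of the energy sensor AMPK, changed most. It had 31.5, 42.8 and 41.1 CPM in siNeg, 90.9, 85.6 and 110 in siSlc39a2, 66.0, 84.6 and 86.1 in siNeg PE and 149, 181 and 226 in siSlc39a2 PE. Only siNeg PE and siSlc39a2 overlapped. It rose by 1.31 (SE 0.166, adjusted p = 3.25e-05) with knockdown and by 1.04 (SE 0.165, adjusted p = 3.35e-04) with PE. Crtc1 and Mef2d, a CREB coactivator and a transcription factor known to act on the Ppargc1a promoter, fell by 0.63 and 0.57 with knockdown, and Crtc2 and Foxo1 fell by 0.81 and 0.51 with PE. Prkaa1, the α1 subunit of AMPK, and Ppp3ca, the calcineurin catalytic subunit, rose by 0.89 and 0.78 with knockdown in PE-treated cells.

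Of 21 other coregulators, 7 rose and 3 fell with knockdown, 3 rose and 7 fell with PE, 7 rose and 2 fell with knockdown in PE-treated cells, and 3 rose and 6 fell with PE in siSlc39a2 cells. All genes tested were 22.8%, 24.0%, 29.2% and 30.7% higher and 26.4%, 25.7%, 28.1% and 29.3% lower in that order. The coregulators were not tested as a set. For PE in siSlc39a2 cells 2 rose and 10 fell with length-dependent offsets, with a median of -0.17 against 0.13 without them, and 9 rose and 7 fell without replicate 1 of every group. Hdac3, the deacetylase of the NCoR corepressor complex, fell by 0.44 (SE 0.076, adjusted p = 4.28e-04) with knockdown. Sirt1, a deacetylase that acts on PGC-1α, and Ncoa2, a receptor coactivator, rose by 0.52 and 0.50 with counts that share reads. Tbl1x, a part of the NCoR complex, rose by 0.46 and Kat2a, an acetyltransferase of PGC-1α, fell by 0.38 with PE. Tbl1xr1 and Med1 rose by 0.59 and 0.44 with knockdown in PE-treated cells.

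Of 28 other nuclear receptors, 6 rose and 9 fell with knockdown, 4 rose and 11 fell with PE, 9 rose and 8 fell with knockdown in PE-treated cells, and 6 rose and 12 fell with PE in siSlc39a2 cells. Among all genes, 22.8%, 24.0%, 29.2% and 30.7% rose and 26.4%, 25.7%, 28.1% and 29.3% fell in the same order. Several counts are near these shares, and the receptors were not tested as a set. Rxrg, the second retinoid X receptor of muscle, went with Rxra. It had 172, 144 and 141 CPM in siNeg, 95.3, 94.4 and 93.1 in siSlc39a2, 60.9, 47.6 and 40.5 in siNeg PE and 24.7, 21.4 and 21.6 in siSlc39a2 PE, with no overlap between groups. PE changed it by -1.62 (SE 0.126, adjusted p = 1.29e-06) in siNeg cells and -2.06 in siSlc39a2 cells, and knockdown by -1.14 in PE-treated cells, all with shared reads.

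Nr4a3, an immediate early receptor, rose by 2.22 with PE (SE 0.166, adjusted p = 8.88e-07), from 1.21 ± 0.198 to 5.65 ± 0.506 CPM. Vdr, the vitamin D receptor, fell by 2.22 with knockdown (SE 0.311, adjusted p = 7.58e-05), from 1.68 ± 0.195 to 0.357 ± 0.0894 CPM. Rora, a clock-linked receptor, rose by 0.85 and Rorb by 2.47, the latter from 0.0778 to 0.451 CPM. The interaction was called for Nr3c2, the mineralocorticoid receptor (0.57, adjusted p = 0.0475).

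The genes with the pattern most like each of the 10 over the 12 libraries were named by Pearson correlation of log2 CPM, as a description over points that share groups and sequencing depth. Rxra went with Grn (r = 0.998), which encodes the lysosomal protein progranulin, Coq8a (0.997), a protein of coenzyme Q synthesis, and Pgm5 (0.996). Esrrg went with Dennd4c (0.985), Ascc3 (0.984) and Tcf20 (0.983), and Esrra with Ap3s2 (0.992), Timm13 (0.986) and Mbd3 (0.985). Tfam went with Zfp330 (0.985) and Cnbp (0.979). Ppara went with Macrod2 (0.940), Akr1c14 (0.923) and Gpam (0.921), Ppard with Neu1 (0.930), Cish (0.914) and Ier2 (0.876), and Esrrb with Chac1 (0.952), Gemin4 (0.950) and Mta2 (0.947). Ppargc1b went with Avl9 (0.973), Slc26a2 and Chml (each 0.972), and Ppargc1a had the lowest values, with Pigb (0.855), Rnf225 (0.851) and RGD1561277 (0.850). Of the genes named in this search, Dennd4c, Akr1c14, Gemin4, Mta2, Pigb and Rnf225 have counts that share reads. Pparg was below the level set for this search.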

How the data were processed

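NRVMs of 4 groups with 3 replicates each were sequenced at BGI. For 18483 genes the authors deposited expected counts, in which reads matching several genes are split between them, and which are not normalized. They also deposited FPKM, which they had scaled to gene length and library size. HISAT, Bowtie2 and Rnor_6.0 stand in the submitters' processing notes, with no version or role. Of the counts, 78.7% lay within 0.005 of a whole number, and genes that were not whole in every library are given as sharing reads. The labels give 36 h of PE and the study's culture methods another time, so libraries were grouped by condition. The labels do not say that same-numbered cultures were prepared together.

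Expected counts were rounded. The filterByExpr function of edgeR 4.0.16 (R 4.3.3) left out 4516 genes and kept 13967. These were TMM-normalized and fitted in 1 model of 4 groups (8 residual degrees of freedom) with the quasi-likelihood test and Benjamini-Hochberg adjustment over all genes tested. The SE is the absolute log2 fold change divided by the square root of F, and ± is the SD of 3 libraries. CPM use TMM-scaled library sizes, and log2 CPM a prior count of 2. Totals were 24065539 to 28603854 counts. Chi-square over genes divided by its degrees of freedom was 4.67 to 33.8 between replicates, so none repeats another.

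The 10 genes, the lists and the tests were chosen with earlier results of these data known. The named genes are the 10, up to 3 called genes of largest change per list and comparison, the 3 genes most correlated with each of the 10 that has a mean log2 CPM above 1, the markers and Slc39a2. Some genes that this rule names are not reported here. Gene length was taken as the mean count over the mean FPKM.

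Alternatives were DESeq2 1.42.0, RLE size factors, no filter, a replicate block, the compared groups alone, the fold threshold, each library left out in turn, and limma 3.58.1 after quantile normalization on log2(FPKM + 1) with and without filter, log2(FPKM + 0.1) and log2(count + 1). Length-dependent offsets (a lowess trend per library) and leaving out replicate 1 of every group were added after seeing the data. The fits were tested on simulated data with known changes.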

Additional observations from a re-analysis of the deposited data

How the results depend on the processing

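With 3 libraries per group, calls near the threshold came and went between alternatives, and a value that misses it is not shown to be 0. Pparg rests on 9 to 49 counts per library. Ppard and Esrra share reads with other genes. Libraries differ by gene length, and the PE comparisons more so than those of the knockdown. The other 9 genes had 148 or more counts in each library.

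Over 1140 pairs of a gene's comparison and an alternative, 1023 kept direction and call, 43 lost a call, 39 gained one and 35 changed sign. Of the changes in sign, 3 concerned a called result, the rise of Ppargc1b with PE in siSlc39a2 cells. It was -0.0028 with limma on log2(FPKM + 1), -0.0034 on log2(FPKM + 0.1) and -0.0027 without the filter. In the same order of limma fits, Ppara with knockdown was -0.069, -0.078 and -0.069, Ppargc1a with knockdown -0.084, -0.097 and -0.084, Ppargc1b with PE -0.080, -0.093 and -0.080, and Ppargc1b with knockdown in PE-treated cells -0.16, -0.20 and -0.16. Ppargc1b with knockdown was 0.021 without the filter and 0.012 with the compared groups alone. With length-dependent offsets, Ppard and Ppargc1b with PE were -0.017 and -0.026, and Ppargc1b with knockdown in PE-treated cells was -0.0095. Without replicate 1 of every group, Ppara with knockdown was -0.014, Ppargc1a with knockdown in PE-treated cells 0.0068 and Ppargc1a with PE in siSlc39a2 cells 0.028. The cause of these changes was not tested.

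Leaving out 1 library at a time gave -0.027 to 0.11 for Ppara with knockdown, -0.13 to 0.049 for Ppargc1b with knockdown and -0.21 to 0.37 for Pparg with PE. It gave -0.17 to 0.031 for Ppargc1a with knockdown in PE-treated cells, -0.13 to 0.054 for Ppargc1a with PE in siSlc39a2 cells and -0.22 to 0.032 for the Esrra interaction. The number of the 10 genes called then ran from 2 to 4 higher and 0 to 1 lower with knockdown (0 without siSlc39a2 replicate 3), 0 to 2 higher and 1 to 2 lower with PE, 2 higher throughout and 1 to 3 lower with knockdown in PE-treated cells, 1 to 4 higher and 3 to 5 lower with PE in siSlc39a2 cells, and 0 to 2 lower for the interaction. The interaction calls came without siSlc39a2 replicate 3.

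Of the 10 genes, PE in siNeg cells raised 1 with limma on either FPKM scale and with length-dependent offsets, and lowered 2 with DESeq2 and with length-dependent offsets. Knockdown in PE-treated cells lowered 4 with limma on either FPKM scale and 5 on log2(count + 1). PE in siSlc39a2 cells raised 2 with limma on either FPKM scale and with length-dependent offsets, and 1 with limma on FPKM without the filter. For the interaction 1 was lower with DESeq2 and 1 with limma on log2(count + 1). With the fold threshold, knockdown raised 0 and lowered 0, PE lowered 0, knockdown in PE-treated cells raised 0 and lowered 0, and PE in siSlc39a2 cells raised 1 and lowered 1. Over all genes tested, the interaction gave 241 higher and 263 lower with edgeR, 372 and 459 with DESeq2, and 355 and 534 with limma on log2(FPKM + 1).

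Same-numbered replicates were checked for pairing by the correlation of their deviations from group means. It ran from -0.0107 to 0.0250 for siNeg and siSlc39a2 and from 0.0535 to 0.315 for siNeg and siNeg PE. It ran from 0.00387 to 0.320 for the PE groups and from -0.0904 to 0.221 for the siSlc39a2 groups. In each pair of groups the mean was higher for same-numbered than for other libraries. For siNeg and siNeg PE it was 0.192 against -0.0946, and for siNeg and siSlc39a2 0.00613 against -0.00305. The labels state no pairing and some values were near or below 0, so the model was fitted without pairing. Whether the numbers pair the libraries is not settled by these values. With a replicate block 4 of the 10 genes rose with knockdown (Ppard was added, 0.16, adjusted p = 0.0187), 2 rose with PE (Ppargc1a and Ppargc1b, adjusted p = 0.0455 and 0.0147) and 2 fell (Rxra and Esrra, adjusted p = 0.0030 for Esrra), 4 fell with knockdown in PE-treated cells (Esrra and Esrrb were added, adjusted p = 0.0106 and 0.0369) and 3 had a lower interaction (Rxra, Ppard and Esrrb, adjusted p = 0.0294, 0.0370 and 0.0329), and over all genes the interaction gave 536 higher and 517 lower.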
